A study of Mus musculus with 10 samples.

Results

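The vomeronasal receptor clusters of the mouse are stretches of the genome where the genes for pheromone receptors lie side by side. They were taken as 6 fixed intervals of the mm9 build, 12.5 Mb in all, and every array probe that starts inside 1 of them was a member. This gave 696 of the 170305 probes on the array, all on autosomes, which hold 161460 probes. The 3 intervals for the Vmn2r family held 475 probes and the 3 for the Vmn1r family held 221. A probe was a member by its position alone, not by any measured value, though the clusters were chosen with earlier results of these data known.

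Liver DNA of 10 mice was compared with a pooled reference by array-based comparative genomic hybridisation, in which the ratio of animal to reference signal at a probe follows the relative number of copies of that sequence. The 5 ICSI-derived mice came from intracytoplasmic injection of sperm of the ZFLacZ transgenic line, obtained from testis cells kept frozen for 14 years, into oocytes of DBA x C57BL/6 females. The 5 naturally born mice were wild-type ZFLacZ progeny, a line made on an SJL x C57BL/6 background, with 3 males and 2 females per group by their labels. The reference was DNA of C57BL/6, SJL and DBA mice in equal amounts. DBA entered the ICSI-derived group through the oocyte, so the maternal strain and the way the animals were made cannot be told apart. Ages beyond adult for the control and reference animals were not given, and the labels of the controls repeat the growth protocol of the frozen germ cells.

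Vomeronasal receptors are G protein-coupled receptors of sensory neurons in the vomeronasal organ, which detects pheromones and other chemical signals between animals. V1R receptors, encoded by Vmn1r genes with a single coding exon, sit on neurons that use the G protein subunit Gnai2 and mostly detect small molecules. V2R receptors, encoded by Vmn2r genes, carry a long extracellular domain and sit on neurons that use Gnao1, many of which detect peptides and proteins. Both families are known for tandem duplication, many pseudogenes and differences between mouse strains. Near-identical neighbours also mean that 1 probe may bind several copies.

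The files pair no probe with a gene, so which receptor a probe lies in was not determined. In RefSeq's annotation of the later build GRCm38.p6, used here for counts and neighbours only, the Vmn2r family has 272 genes, of which 148 are pseudogenes. Chromosome 5 carries 19 of them, chromosome 7 carries 105 and chromosome 17 carries 52, with 5, 16 and 9 as the longest runs of adjacent Vmn2r genes. The Vmn1r family has 373 genes, of which 142 are pseudogenes. Chromosome 6 carries 83 and chromosome 7 carries 176, with longest runs of 21 and 8. Chromosome 17 also carries 26 Vmn1r genes, and chromosome 6 carries 13 Vmn2r genes. These counts are for whole chromosomes, and how many of the genes lie in the intervals was not determined. An interval named for 1 family may therefore hold genes of the other. Median length of a coding gene was 24.4 kb for Vmn2r and 0.924 kb for Vmn1r, set against a median distance of 10.8 kb between autosomal probes.

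All values below are log2 ratios of animal over pool, centred on each array's autosomal median. The spread between neighbouring probes was 0.14 to 0.15 on 7 arrays, 0.17 for naturally born replicate 2, and 0.20 and 0.21 for ICSI-derived replicates 1 and 4. The chromosome X mean of naturally born replicate 3, labelled male, was -0.033. The other 5 males lay between -0.61 and -0.55 and the 4 females between 0.26 and 0.28. Its chromosome Y mean was -0.0072, against 0.75 to 0.82 in the other males and -1.57 to -1.42 in the females. This array thus lay between the sexes on both chromosomes, so it goes against its label without matching the other sex. The library labelled naturally born replicate 3 is kept with its label, with values without it beside the results.

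Probes stood at ordinary density in 5 of the clusters and were nearly absent from the other. The Vmn2r cluster of chromosome 5 (108900000 to 110200000) held 86 probes, that of chromosome 7 (91900000 to 94200000) held 175, and that of chromosome 17 (18000000 to 21000000) held 214. The proximal Vmn1r cluster of chromosome 6 (56800000 to 58000000) held 98 probes and the distal one (89500000 to 90700000) held 104. These came to between 66.2 and 86.7 probes per Mb. The Vmn1r cluster of chromosome 7 (21000000 to 24500000) held 19 probes over 3.5 Mb, or 5.43 per Mb. Its first 3.08 Mb held no probe, and all 19 lay between 24083537 and 24428792. Only 2 of its 17 complete windows of 200 kb reached 5 probes, where all 43 complete windows of the other 5 clusters did and 91.6% of 12369 autosomal windows did. Levels given for this cluster therefore describe its last 0.345 Mb. Smaller holes stood in the others, the longest being 81.5 kb on chromosome 17 and 77.9 kb on chromosome 5.

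**Figure D1:**
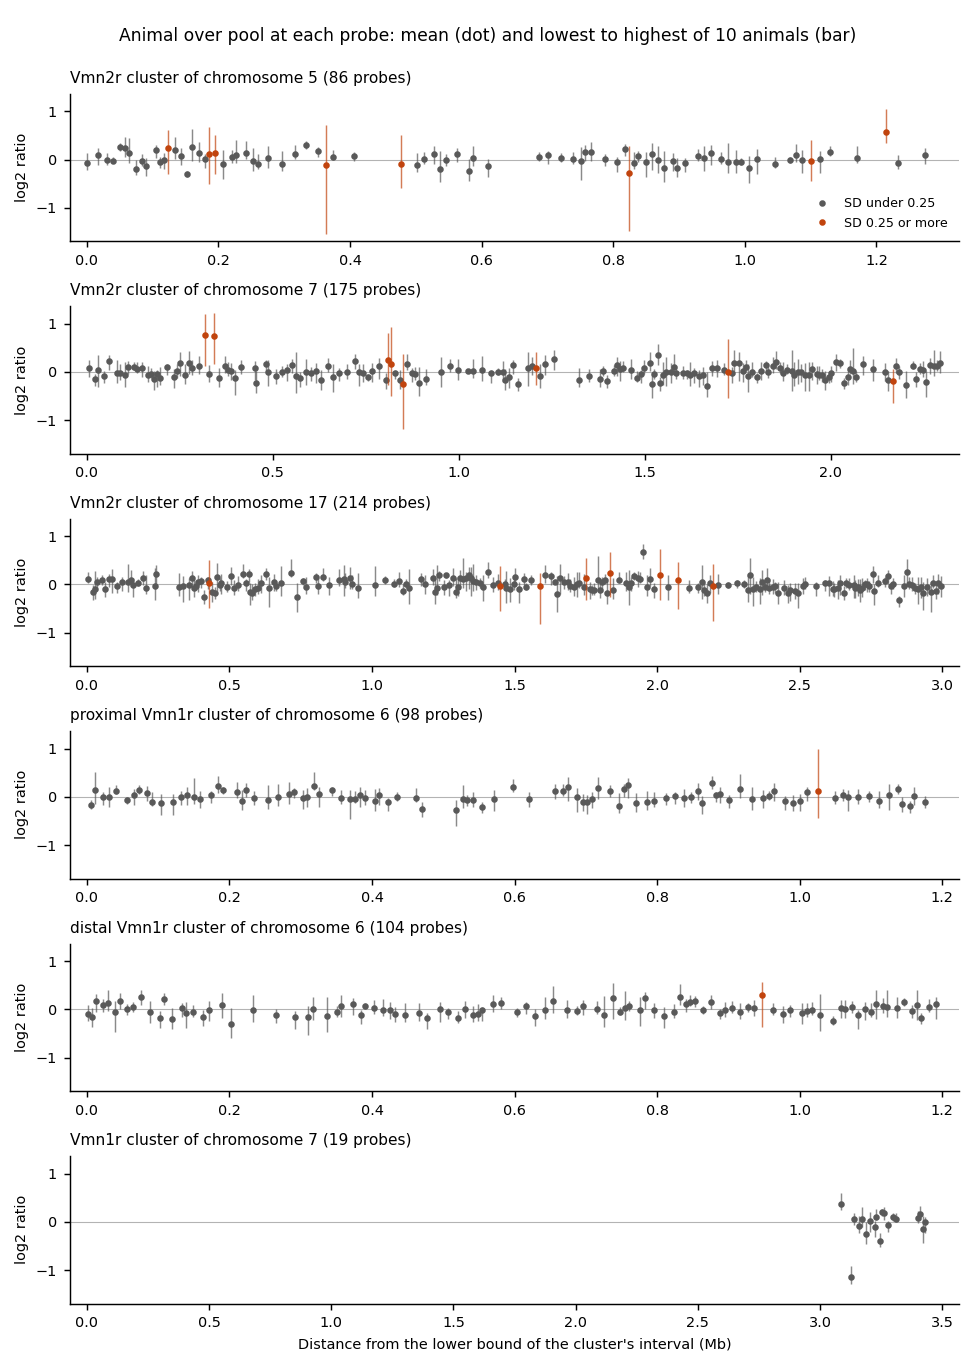
Log2 ratio of animal over pool (vertical axis) at each of the 696 probes against distance in Mb from the lower bound of the cluster's interval (horizontal axis), 1 panel per cluster. Dots are means and bars run from the lowest to the highest of 10 animals, in orange where the SD over animals was 0.25 or more, and the lowest panel is empty over its first 3.08 Mb.

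Means over the measured probes of each cluster lay near the level of the pool in all animals. Over the 86 probes of the Vmn2r cluster of chromosome 5, the ICSI-derived animals 1 to 5 averaged 0.024, 0.027, 0.0016, 0.041 and 0.057, and the naturally born animals 0.0090, 0.040, 0.043, -0.0048 and -0.0070. The group means were 0.030 ± 0.021 and 0.016 ± 0.024 (SD, n = 5 each), and the groups overlapped. The Vmn2r cluster of chromosome 7 read 0.011, 0.0073, 0.029, -0.040 and 0.047 in ICSI-derived mice and 0.034, -0.051, 0.037, -0.011 and 0.049 in naturally born mice. The lowest animal of each group there was a noisy array, ICSI-derived replicate 4 and naturally born replicate 2. The Vmn2r cluster of chromosome 17 read -0.018, 0.012, 0.036, -0.014 and 0.0020 in ICSI-derived mice and 0.032, -0.027, 0.030, -0.010 and 0.023 in naturally born mice. The group means differed by -0.0012 on chromosome 7 and -0.0059 on chromosome 17, less than the SD within either group.

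The Vmn1r clusters of chromosome 6 were equally close to 0, with 1 animal apart. The proximal cluster read -0.0092, 0.013, 0.011, 0.0021 and 0.0045 in ICSI-derived mice and -0.0025, -0.021, 0.0076, -0.018 and 0.074 in naturally born mice. The distal cluster read -0.019, -0.025, -0.0030, -0.0058 and -0.023 in ICSI-derived mice and -0.0019, 0.0089, -0.021, 0.034 and 0.061 in naturally born mice. Naturally born replicate 5 was highest in both. Its mean over all of chromosome 6 was 0.069, against -0.0039 to 0.012 in the other 9 animals. Relative to that chromosome it read 0.0044 in the proximal cluster, where the others ran from -0.022 to 0.013, and -0.0087 in the distal one, where they ran from -0.033 to 0.031. Both clusters of this animal thus lay inside the range of the others once the chromosome's own level was taken off. The 19 probes of the Vmn1r cluster of chromosome 7 read -0.037, -0.046, -0.049, -0.051 and 0.013 in ICSI-derived mice and -0.047, -0.088, -0.0014, -0.050 and -0.037 in naturally born mice. These averages include A_67_P03806005, described below, with a mean of -1.13 over the animals. The median of the 19 probe means was 0.054.

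**Figure D2:**
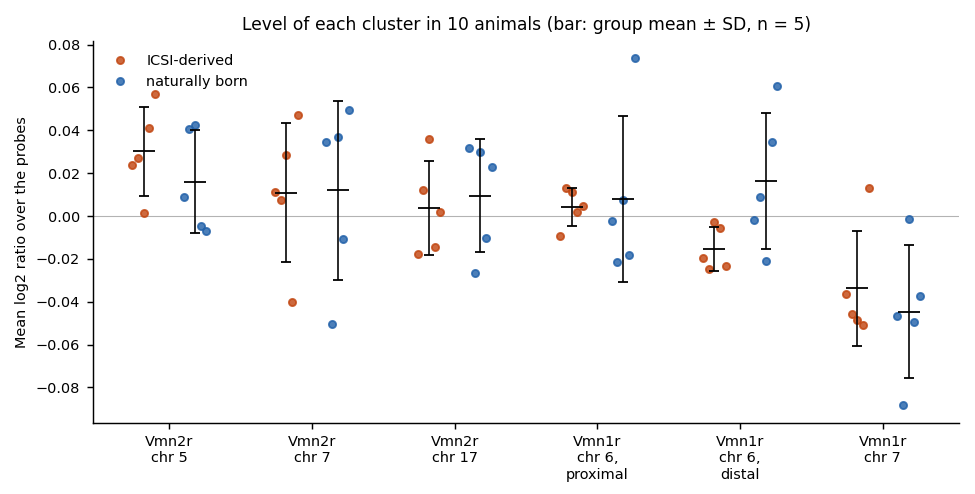
Mean log2 ratio over the probes of each cluster (vertical axis) in the 5 ICSI-derived (orange) and 5 naturally born (blue) animals, 1 dot per animal, with the group mean and SD as bars. The groups overlap in all 6 clusters, and the widest distance between group means, -0.032 in the distal cluster of chromosome 6, comes with the high value of naturally born replicate 5.

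Difference between the groups was largest in the distal Vmn1r cluster, at -0.015 ± 0.010 in ICSI-derived mice and 0.016 ± 0.032 in naturally born mice (SD, n = 5 each). The ranges still overlapped. The difference of -0.032 came to -0.020 without naturally born replicate 5, the animal with the raised chromosome 6, and to -0.041 without naturally born replicate 3. In the other 5 clusters it lay between -0.0036 and 0.022 without naturally born replicate 3. Only in the Vmn1r cluster of chromosome 7 did a slide move the difference by more than the SD of both groups. It was 0.011 over all animals, 0.026 within the first slide and -0.024 within the second. Each of these slides held 2 animals of each group. In the distal cluster of chromosome 6 the difference was -0.026 within the first slide and -0.011 within the second, and in the proximal one 0.014 and 0.012.

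No probe of the receptor clusters was called different between the groups. With limma over all 161460 autosomal probes (two-sided, with terms for group and sex, at a Benjamini-Hochberg adjusted p of 0.05), 0 of the 696 probes were called higher and 0 lower in ICSI-derived animals. Over all autosomal probes 0.0155% were called higher and 0.00434% lower, and the members' count lies near that background. At an unadjusted p under 0.05 there were 14 members, or 2.01%, against 3.27% of all autosomal probes, 7 in each direction. The smallest limma adjusted p among the members was 0.889. On simulated probes the same fit recovered 26.9% of differences of 0.3 and 79.1% of 0.6, so differences of that size could be missed. The median difference was -0.0059 over the members and -0.00038 over all autosomal probes, with a median standard error of 0.068 at a member.

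**Figure D3:**
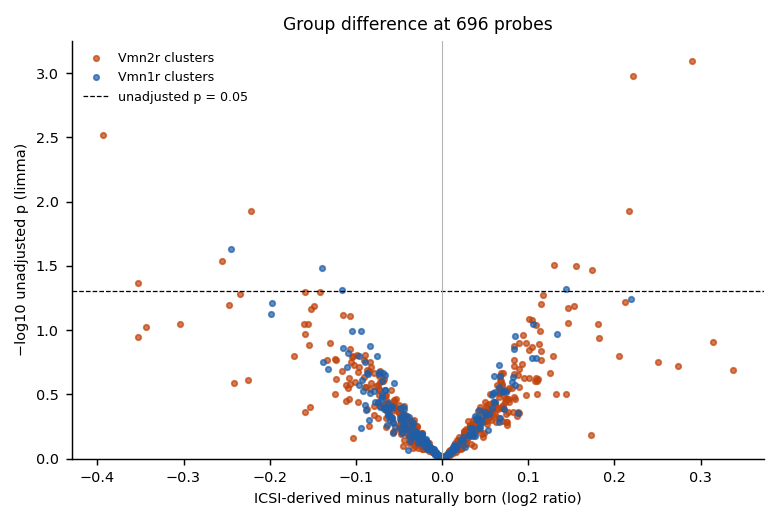
Difference between group means in log2 ratio, ICSI-derived minus naturally born (horizontal axis), against −log10 of the unadjusted limma p (vertical axis), 1 dot per probe, for the Vmn2r clusters (orange) and the Vmn1r clusters (blue). The dashed line marks an unadjusted p of 0.05, which 14 of 696 probes pass, 7 on each side of 0, and none passes after adjustment.

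The probes nearest to a group difference, named after their values were seen, lay in the Vmn2r cluster of chromosome 17. Probe A_67_P03289814, at 20422787, read 0.028, -0.048, 0.027, 0.055 and -0.18 in ICSI-derived animals and -0.12, -0.41, -0.30, -0.39 and -0.36 in naturally born ones. Naturally born replicate 1 lay inside the ICSI-derived range. Its difference of 0.29 had the smallest adjusted p of the set, given above. The widest difference, -0.39 at A_67_P08731442 (19751196), came from ICSI-derived values of -0.31, -0.11, 0.33, -0.24 and 0.056 against naturally born values of 0.54, 0.31, 0.40, 0.21 and 0.23. Here ICSI-derived replicate 3 lay among the naturally born animals (limma adjusted p = 1.00). Only 1 member, A_67_P14943143 at 92547751 of chromosome 7, had groups that did not overlap, which is 0.144% of members beside 0.51% of all autosomal probes. It ran from 0.097 to 0.28 in ICSI-derived mice, and from 0.0037 to 0.093 in naturally born mice, so the nearest animals lay almost together.

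Windows of 200 kb gave the same count. Among 45 windows with at least 5 probes, limma called 0 in either direction, where 0.0177% of the 11325 autosomal windows were called higher and 0% lower. No member window had an unadjusted p under 0.05, which 2.88% of all windows had, and the smallest was 0.134. The largest difference in a window was -0.058, in the Vmn2r cluster of chromosome 17 between 20000001 and 20200000.

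Some probes sat away from the pool in every animal, whichever group it belonged to. A mean of at least 0.25 from 0 with 1 sign in all 10 animals was found at 22 members, or 3.16%, beside 4.21% of all autosomal probes. Of these, 13 lay above the pool, where the autosomal share was 2.9%, and 9 below it, where that share was 1.31%. The Vmn2r clusters held 14 of them and the Vmn1r clusters 8. Most were shallow, with 17 of the 22 between 0.25 and 0.4 from 0. Without naturally born replicate 3 the count was 26, and the share of all autosomal probes was then 4.44%. The count was 68 with normexp background correction. That alternative starts from median intensities with no dye normalisation beyond centring, and the share of all autosomal probes was then 8.42%.

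The deepest was in the sparse Vmn1r cluster of chromosome 7. Probe A_67_P03806005, at 24127770, read -1.06, -1.30, -1.06, -1.15 and -0.92 in ICSI-derived mice and -1.08, -1.26, -1.16, -1.19 and -1.17 in naturally born mice. All 10 animals were near 1 unit below the pool, with an SD over animals of 0.11, and the mean was -0.60 after normexp correction. The first probe of the cluster, A_67_P06139076 at 24083537, was the highest of the cluster, with a mean of 0.38 and a range from 0.25 to 0.61. Offsets of opposite sign thus stood within the same short stretch in the same animals.

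The Vmn2r clusters held the highest means. On chromosome 17, A_67_P08731706 (19950981) read 0.83, 0.67, 0.80, 0.65 and 0.68 in ICSI-derived mice and 0.56, 0.54, 0.55, 0.58 and 0.84 in naturally born mice. Every animal was above the pool by at least 0.54. On chromosome 5, A_67_P13662467 (110114338) read 0.63, 0.84, 0.47, 0.37 and 1.05 in ICSI-derived mice and 0.38, 0.89, 0.34, 0.34 and 0.38 in naturally born mice. Here all animals were above the pool but to unequal degrees, the highest being ICSI-derived replicates 2 and 5 with naturally born replicate 2. On chromosome 7 the highest mean, 0.77, was at A_67_P06267255, described below.

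Lowest means of the Vmn2r clusters were alike, at -0.31 on chromosome 5 (A_67_P05690194, 109051801), -0.28 on chromosome 7 (A_67_P06268828, 93567157) and -0.31 on chromosome 17 (A_67_P08733002, 20848283). In the Vmn1r clusters of chromosome 6 the extreme means were no larger. They were 0.29 (A_67_P05911871, 57676653) and -0.26 (A_67_P14122759, 57317280) in the proximal cluster and 0.29 (A_67_P01382141, 90447051) and -0.31 (A_67_P14266826, 89701504) in the distal one. Neither distal probe kept 1 sign in all animals. A_67_P01382141 ran from -0.37 to 0.58 and A_67_P14266826 from -0.60 to 0.039. Signal was not well above background on all arrays at both of the low probes, which passed on 8 and 9 of the 10. After normexp correction none of these 7 means stayed 0.25 or more from 0. The low probes of the Vmn2r clusters then read -0.22, -0.12 and -0.18 on chromosomes 5, 7 and 17. On chromosome 6 the high probes read 0.031 in the proximal and -0.095 in the distal cluster, and both low probes -0.14.

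Most probes that varied between animals lay in the Vmn2r clusters. An SD over the 10 animals of at least 0.25 was found at 26 members, or 3.74%, beside 2.79% of all autosomal probes. The Vmn2r clusters held 24 of them among 475 probes (5.05%) and the Vmn1r clusters 2 among 221 (0.905%). By cluster, 8 of 86 probes varied on chromosome 5 (9.30%), 8 of 175 on chromosome 7 (4.57%) and 8 of 214 on chromosome 17 (3.74%). Each Vmn1r cluster of chromosome 6 held 1, and that of chromosome 7 held 0. The median SD was 0.109 for members and 0.104 for all autosomal probes. After normexp correction 22 members varied (3.16%), beside 3.78% of all autosomal probes, so the share over all members was then below the background. Of those 22, 21 lay among the 475 probes of the Vmn2r clusters.

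Dim probes made part of that count. Signal was well above background on fewer than all 10 arrays at 10 members (1.44%), beside 0.276% of all autosomal probes, and 8 of the 26 varying members were among them. Among the probes well above background on every array, 18 of 686 members varied (2.62%), beside 2.58% of autosomal probes. The Vmn2r share was then 17 of 468 (3.63%) and the Vmn1r share 1 of 218 (0.459%). The most variable member of all, A_67_P13659388 on chromosome 5 with an SD of 0.79, was not well above background on any array. The window of highest SD, 109200001 to 109400000 on chromosome 5, holds this probe and 1 other dim one. Over its 7 probes the animals ran from -0.19 to 0.29, with an SD of 0.15, and over the 5 well measured probes from 0.10 to 0.19, with an SD of 0.029. It was the only 1 of 45 member windows with an SD of at least 0.1 (2.22%, beside 1.86% of all windows). Without naturally born replicate 3, 27 members varied, and the share of all autosomal probes was then 3.09%.

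**Figure D4:**
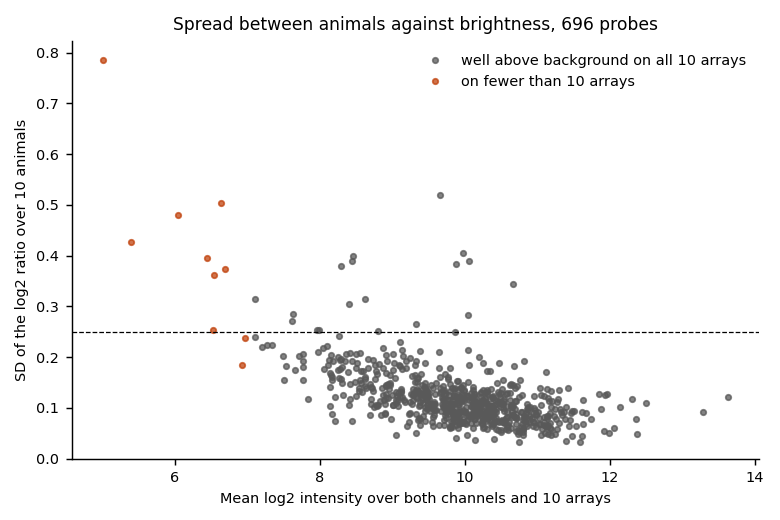
SD of the log2 ratio over 10 animals (vertical axis) against mean log2 intensity over both channels and all arrays (horizontal axis), 1 dot per probe. The dashed line is an SD of 0.25, and 8 of the 26 probes on or above it are among the 10 members that were not well above background on all arrays (orange).

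Several bright probes of the Vmn2r clusters split the animals into a high and a low set with a gap between them. These probes were singled out after their values were seen, the sets are read from the values and are no groups of the study, and nothing was tested on them. A gap of at least 0.3 between ordered animals, with at least 2 on each side, stood at 5 bright members (0.729%), beside 1.21% of autosomal probes. All 5 lay in Vmn2r clusters, 3 on chromosome 5 and 2 on chromosome 17. Among the 468 bright probes of the Vmn2r clusters their share was still below that of all autosomal probes.

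On chromosome 5, A_67_P05690109 (109023893) read 0.56, 0.62, -0.29, 0.51 and 0.47 in ICSI-derived mice and 0.55, 0.50, -0.25, -0.14 and -0.15 in naturally born mice. ICSI-derived replicate 3 and naturally born replicates 3, 4 and 5 were low, and no animal lay between -0.14 and 0.47. A_67_P13658513 (109094436) read 0.52, 0.28, -0.28, 0.44 and 0.38 in ICSI-derived mice and 0.36, 0.44, -0.29, -0.26 and -0.17 in naturally born mice. The same 4 animals were low. A_67_P05690321 (109086151) kept that order too, with the 4 between -0.51 and -0.059 and the other 6 between 0.15 and 0.68. Its widest gap, 0.35, was a different one, between ICSI-derived replicate 1 with naturally born replicate 2 and the remaining 8 animals. The stretch from the first to the last of these probes, 70.6 kb, held 9 probes, and the other 6 did not split the animals this way.

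The order was read from A_67_P05690109. Of the other 85 probes of the chromosome 5 cluster, 4 (4.71%) had those 6 animals above those 4 and none had them below, beside 0.474% of all autosomal probes. At 2 of these the sets were only 0.011 and 0.017 apart, far less than the spread between neighbouring probes. Since the order came from the same cluster, nothing is read from these shares or from those below. Each set mixed the groups, with 4 ICSI-derived and 2 naturally born animals high. After normexp correction the gap was 0.73 at A_67_P05690109 and 0.61 at A_67_P13658513, and at A_67_P05690321 the sets overlapped by 0.030 (a gap of -0.030).

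On chromosome 17 the widest gap, 0.76, stood at A_53_P113161 (20196706). It read -0.52, 0.40, 0.31, -0.75 and -0.45 in ICSI-derived mice and 0.37, 0.37, 0.34, 0.42 and -0.76 in naturally born mice. The low animals were naturally born replicate 5 and ICSI-derived replicates 1, 4 and 5, and the other 6 lay within 0.31 to 0.42. The gap was 0.49 after normexp correction, less than at A_67_P05690109. A_67_P08732182 (20334480) had the same 4 animals low, between -0.45 and -0.31, with the others between 0.0059 and 0.15. A_67_P03289509 (20074254) had them between -0.52 and -0.068, with the others between 0.15 and 0.47, and that order was lost after normexp correction (a gap of -0.11). Of the 213 probes of the cluster other than A_53_P113161, from which the order was read, 5 (2.35%) had it and none the reverse, beside 1.62% of the probes of chromosome 17 and 0.512% of all autosomal probes. At 3 of the 5 the sets lay 0.038 to 0.063 apart.

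On chromosome 7 another such order recurred over a longer distance, though no bright probe of that cluster had a gap of at least 0.3. A_67_P06267255 (92217131) read 0.98, 0.55, 0.47, 0.12 and 1.11 in ICSI-derived mice and 1.14, 0.22, 0.77, 1.11 and 1.21 in naturally born mice. The lowest, though still above the pool, were naturally born replicate 2 and ICSI-derived replicates 2, 3 and 4. A_67_P14942212 (92241594) had the same 4 animals lowest, at 0.17 to 0.55 against 0.79 to 1.22. A_67_P06267717 (92709305) had them at -0.27 to -0.0037 against 0.27 to 0.80, and A_67_P01566710 (93107449) at -0.27 to 0.060 against 0.14 to 0.42. The widest gap was a different one at 2 of these probes. At A_67_P06267255 it was 0.25, with only ICSI-derived replicate 4 and naturally born replicate 2 below it. At A_67_P01566710 it was 0.28 and parted 7 animals from 3, with ICSI-derived replicate 4 on the high side. After normexp correction the last order was lost (a gap of -0.036) and the gap at A_67_P14942212 fell from 0.24 to 0.035, while it was 0.45 at A_67_P06267255 and 0.26 at A_67_P06267717.

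From the first to the last of these 4 probes, 890 kb held 60 probes, of which 7 had this order and 53 did not. Of the 174 probes of the cluster other than A_67_P06267717, from which the order was read, 13 (7.47%) had it and none the reverse, beside 0.834% of the probes of chromosome 7 and 0.313% of all autosomal probes. Only 4 of the 14 probes with this order had an SD of at least 0.25, and at 11 the sets lay 0.010 to 0.13 apart, less than the spread between neighbouring probes. Those 4 animals include ICSI-derived replicate 4 and naturally born replicate 2, which are among the noisiest arrays and had the lowest mean over the cluster. ICSI-derived replicate 1, also a noisy array, was in the high set. In the order of chromosome 5 all of these noisy arrays were high. In that of chromosome 17, ICSI-derived replicates 1 and 4 were low and naturally born replicate 2 was high. Whether array noise has a part in any of these orders was not tested.

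**Figure D5:**
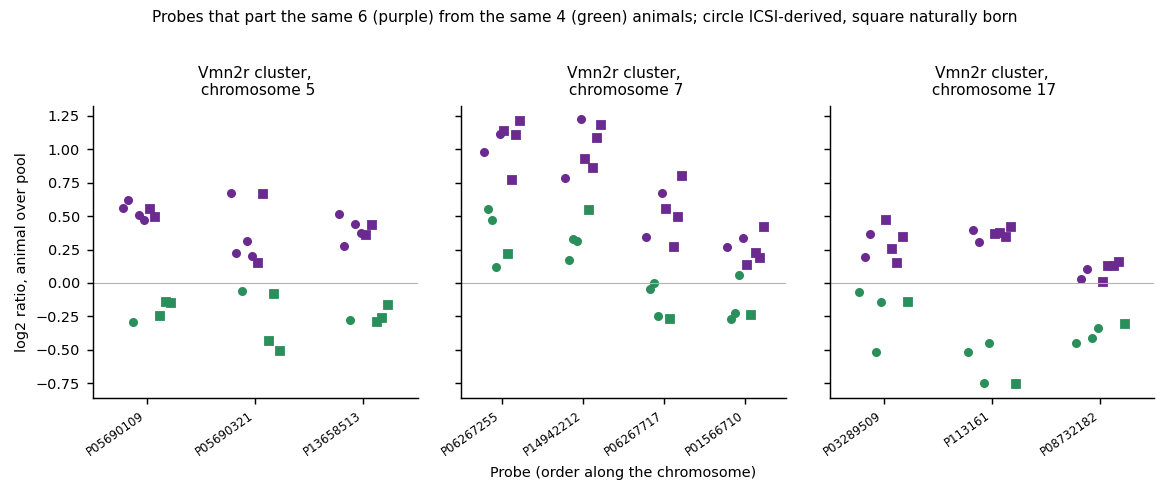
Log2 ratio of animal over pool (vertical axis) at 10 probes of the Vmn2r clusters, in order along each chromosome (horizontal axis), with ICSI-derived animals as circles and naturally born ones as squares. The probes were picked for this order: in each panel the same 6 animals (purple) lie above the same 4 (green) at every probe shown. The order held at 5.81%, 8% and 2.80% of the probes of the clusters of chromosomes 5, 7 and 17. The sets differ from panel to panel, and both colours hold circles and squares.

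A stretch at a constant level was called once in the clusters, of 272 called in all animals over the autosomes. In ICSI-derived replicate 5 it covered 8 probes of the Vmn2r cluster of chromosome 7, from 92151620 to 92241653 (90.0 kb), at a mean of 0.45. Over the same 8 probes the other ICSI-derived animals read 0.29, 0.094, 0.15 and 0.13 and the naturally born ones 0.30, 0.12, 0.22, 0.30 and 0.41. Naturally born replicate 5 was almost as high with no call. The stretch holds the high probes A_67_P06267255 and A_67_P14942212, and the remaining 6 probes read 0.21 in ICSI-derived replicate 5, 0.15 in naturally born replicate 5 and 0.0037 to 0.10 among the others. Members inside a called segment were thus 8 (1.15%), beside 0.496% of all autosomal probes. The call was lost when 10 probes were required, under a stricter penalty and after normexp correction.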

How the data were processed

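Genomic DNA of 10 animals was hybridised, 1 animal per 2-colour Agilent array, with the animal in Cy5 and the pool in Cy3 per the labels. The deposited scanner files hold spot intensities, whose background subtraction and dye normalisation were done in Feature Extraction 10.7.3.1, per the file headers. Log10 ratios in the deposited value table were identical to those of the scanner files. Build mm9 is named on 6 arrays, and the other 4, with no build named, carry the same coordinates. Partek 6.5 appears in the submitters' processing notes, with its role not given.

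Control spots were left out, spots of a probe were averaged, and the log2 ratio was centred on the autosomal median, with no loess or quantile step. The tests of probes and windows used limma 3.58.1 (R 4.3.3) and were checked on simulated data. Segments needed at least 5 probes and an absolute mean of 0.25, with a penalty factor of 3. Array number limits the precision, and arrays sat on 3 slides, with both groups on each. The members, lists and tests were chosen with earlier results of these data known. Named were the 6 clusters, called probes, windows and segments, and in each cluster the window of highest SD and the probes of highest and lowest mean. Any other probe was named with its values already known. A planned count for vomeronasal signalling genes was not run, because no annotation of the files' build was used here. Normexp (offset 50) used median intensities, without the dye normalisation of Feature Extraction, and was centred on the autosomal median. Values given after normexp correction therefore differ from the main ones by more than the background step. The other steps ran in Python 3.11.15 with numba 0.67.0, pandas 2.3.3 and numpy 2.4.6.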

Additional observations from a re-analysis of the deposited data

Results flagged for a closer look

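Among 58 sets of 5 animals of 1 group at a named probe, window or cluster, 7 held an animal far from the other 4. Chance gives about 1 in 20 for independent sets not picked by their values. The probes and windows here were picked by their means, SDs or splits, and the sets share animals. The count is therefore not judged against that share. In the Vmn1r cluster of chromosome 7, ICSI-derived replicate 5 read 0.013 and the other 4 lay between -0.051 and -0.037. At A_67_P13662467 on chromosome 5, naturally born replicate 2 read 0.89 and the others 0.34 to 0.38. At A_67_P08731706 on chromosome 17, naturally born replicate 5 read 0.84 and the others 0.54 to 0.58. At A_67_P08733002 on the same chromosome, ICSI-derived replicate 1 read -0.47 and the others -0.28 to -0.24. At A_67_P01382141 in the distal Vmn1r cluster of chromosome 6, naturally born replicate 3, the array whose sex chromosomes match neither sex, read -0.37 and the others 0.35 to 0.58. At A_67_P05690109 on chromosome 5, ICSI-derived replicate 3 read -0.29 and the others 0.47 to 0.62. At A_53_P113161 on chromosome 17, naturally born replicate 5 read -0.76 and the others 0.34 to 0.42. The last 2 probes were among those picked for a split between animals, so an animal apart at them follows from that choice.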

How the results depend on the processing

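Member probes called stayed at 0 under all 23 alternatives, with 12 to 41 at an unadjusted p under 0.05 and a lowest limma adjusted p of 0.0646, within the second slide. Member windows called stayed at 0 under all 26, with 0 to 3 at an unadjusted p under 0.05. With the replicate number as a block (replicate block), 0 probes and 0 windows were called, and same-numbered animals did not deviate together (correlations of 0.047, -0.28, 0.10, -0.0060 and 0.15). Varying probes numbered 6 at an SD of 0.4, beside 0.687% of all autosomal probes. In alternatives added after seeing the data they numbered 5 by a gap of 0.3 and 17 among bright probes without the 3 noisiest arrays. Leaving out 1 animal gave 24 to 27. Probes off the pool numbered 68 with normexp and 5 at a threshold of 0.4, beside 8.42% and 0.883% of all autosomal probes. With 1 animal left out they numbered 20 to 26. The cluster difference of the Vmn1r cluster of chromosome 7 was -0.024 within the second slide. With 1 animal left out, cluster differences ran from 0.0074 to 0.021 (chromosome 5), -0.017 to 0.012 (Vmn2r, chromosome 7), -0.015 to -0.00036 (chromosome 17), -0.011 to 0.013 (proximal) and -0.041 to -0.020 (distal, chromosome 6), and -0.00088 to 0.022 (Vmn1r, chromosome 7). Segments in the clusters numbered 0 with 10 probes required, after normexp and at a penalty factor of 6, and 0 to 1 with 1 animal left out, the 0 being without ICSI-derived replicate 5, which holds the call. Of 34 values of named probes (means, group differences and gaps between sets), 15 moved by more than the spread between animals with normexp. For a gap, that spread was the one between animals within the high and low sets. With normexp 5 values changed sign, 2 of them gaps that moved less than that spread. None of 166 values under the other alternatives moved so far, and the cause was not tested.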
